A study of Mus musculus with 4 samples.

Results

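The 10 heat shock and chaperone genes described here are Hspa1a, Hspa1b, Hspa8, Hsph1, Hspb1, Dnajb1 and Hsp90aa1, whose proteins work in the cytosol, Hspa5 in the endoplasmic reticulum, and Hspd1 and Hspe1 in mitochondria. They were taken by name. Every probe set whose platform annotation gives 1 of these symbols was kept, which made 25 of the 45101 probe sets on the array, and no probe set with several symbols listed a member. The RNA was total RNA of mouse neural tissue, labelled as brain, hindbrain and spinal cord together, and 4 arrays were hybridised. A Nugen amplification kit gave cDNA target for 2 arrays, and T7-based amplification gave antisense RNA (aRNA) target for the other two. Within each preparation the arrays are numbered 0 and 1. The labels give no strain, age, treatment or meaning of the number, and do not say how many animals gave the RNA or whether RNA was pooled or shared between preparations.

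Chaperones bind unfolded stretches of other proteins and keep them from clumping, and most use ATP to release them for another attempt at folding. Cells that are heated or otherwise stressed switch on the inducible members through heat shock factor 1, which binds heat shock elements near the start of the genes. Stress inside the endoplasmic reticulum acts through separate sensors, the unfolded protein response, and mitochondria carry their own folding chamber. Neurons depend on the constitutive cytosolic members for synaptic vesicle recycling.

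Levels are given as log2(intensity + 16), where intensity is the deposited brightness of a probe set, and a difference of 1 on this scale is close to a doubling for bright probe sets. Levels of different probe sets are not comparable with each other, so only differences between arrays are read. Only probe sets whose mean level reached the median of all probe sets (8.38) were tested, and a probe set is called where the Benjamini-Hochberg adjusted p over all 22519 probe sets tested was under 0.05 in limma. Wherever a pair of levels is given for a preparation, array 0 comes first and array 1 second. Of the 25 member probe sets, 24 were tested. The remaining 1, Hsp90aa1 1433251_at, lay under the background level on 3 of 4 arrays and read 5.93 and 7.82 on cDNA and 7.60 and 5.65 on aRNA. The background level of an array is the 95th percentile of 27 control probe sets for Bacillus transcripts, between 7.12 and 8.05 over the arrays. With 2 arrays per preparation, precision is limited by the number of arrays, and each p-value measures only the spread between these arrays. For the cDNA arrays the labels do not say whether that spread is technical, and this was not tested. Genes called between the numbers, given below, differed between them, such as Sprr1a (10.14 and 13.06) and C1qa (9.54 and 12.11). The median absolute difference between the cDNA arrays was 0.37 over all probe sets tested. The aRNA arrays differed in sex-linked transcripts, given next, so they did not hold the same RNA.

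One array stood apart in sex-linked transcripts. Xist read 11.94 and 12.51 on cDNA and 15.44 on aRNA array 1 but 8.55 on aRNA array 0, where the Y-linked Eif2s3y read 13.12 against 7.92, 4.75 and 6.79 elsewhere. Differences between the preparations of the member probe sets are therefore also given without aRNA array 0. Defining markers of neural tissue were above background on all 4 arrays for 10 of 10 neuronal, 10 of 10 astrocytic and 9 of 9 oligodendrocyte genes on the array, 12 of 14 of microglia and macrophages, 9 of 10 of meninges and fibroblasts, 5 of 9 of endothelium and 2 of 7 of choroid plexus. Of 9 Hox genes that mark hindbrain and spinal cord, 2 (Hoxa5 and Hoxb3) were above it on all 4 arrays and 2 (Hoxc8 and Hoxc9) under it on all 4. As a sign of RNA quality, the Gapdh control read higher at its 3' end than at its 5' end by 2.05 to 3.38 (log2) with cDNA and 2.39 to 3.22 with aRNA. For beta-actin the gap was 3.62 to 4.07 and 3.13 to 3.76.

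The first question was whether chaperone transcripts read alike in both preparations. Of the 24 tested member probe sets, 11 were called lower on cDNA, 4 were called higher there and 9 were not called. Calls thus covered 62.5% of the member probe sets, against 43.2% of all probe sets tested, where 22.9% were lower and 20.2% higher. At 20 of the 24, or 83.3%, the levels of the preparations did not overlap, which also held for 73.8% of all probe sets tested. Taking for each gene its leading probe set, the one with the highest mean, 4 of the 10 members were called lower and 1 higher. That is 50.0% of the members, against 44.8% of the 11945 genes tested in this way (22.9% lower, 21.9% higher), so by gene the share called was near that of all genes. The median difference over the 24 member probe sets was −0.73, against −0.11 over all probe sets tested. Without aRNA array 0, 10 were called lower and 5 higher.

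**Figure D1:**
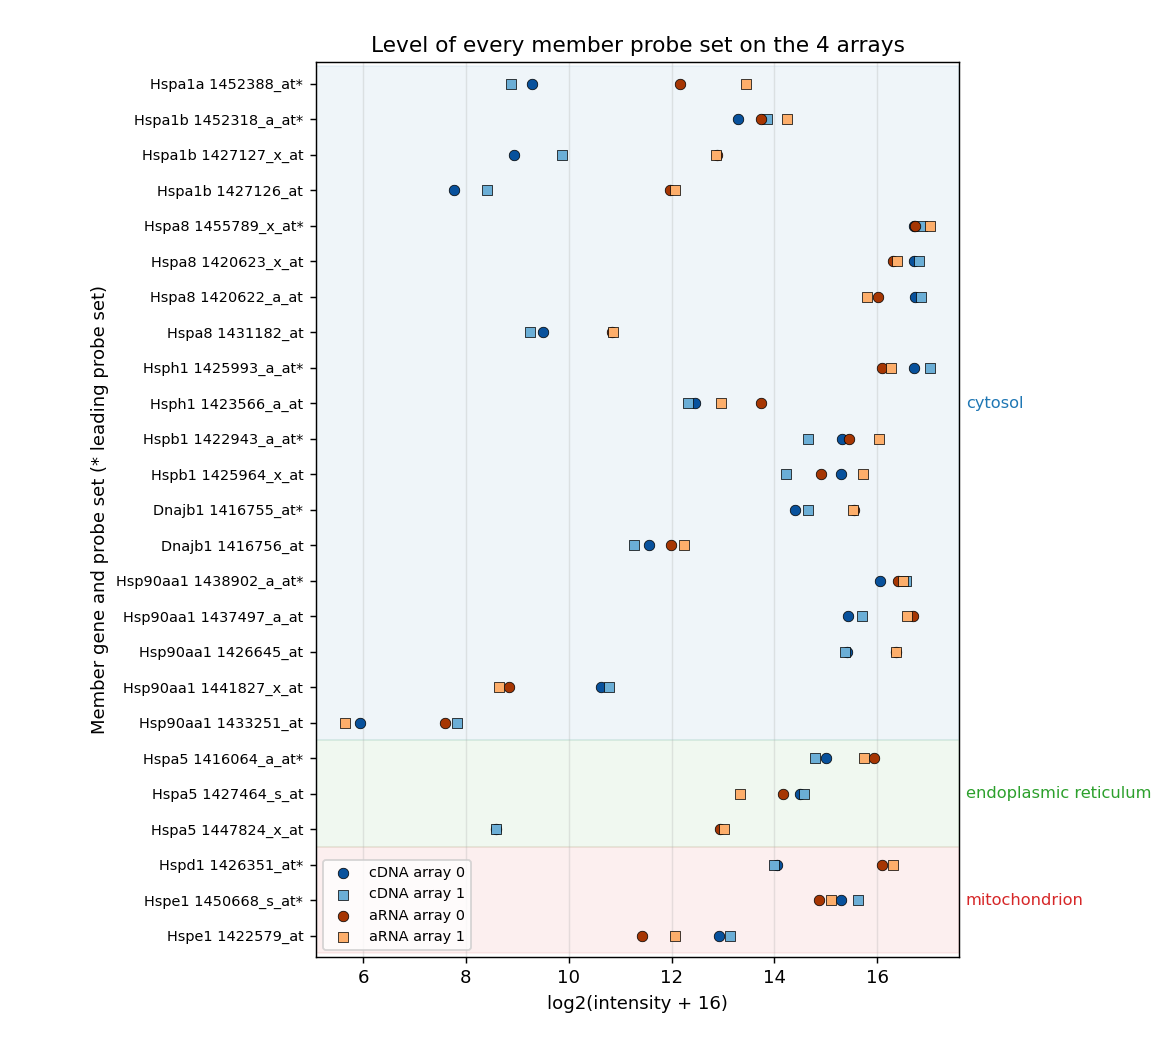
Level of each of the 25 member probe sets, as log2(intensity + 16), on the cDNA arrays (blue) and the aRNA arrays (orange), with circles for arrays numbered 0, squares for arrays numbered 1 and shading by compartment. The low cDNA points of Hspa1a, Hspa1b 1427127_x_at and 1427126_at and Hspa5 1447824_x_at, between 7.77 and 9.87, stand far to the left of their aRNA points, between 11.97 and 13.44.

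The inducible HSP70 genes, Hspa1a and Hspa1b, showed the widest gap among the cytosolic members. They are neighbours, encode almost the same protein and have near-identical promoters, so a probe set named for 1 of them may also read the other. The stretch of promoter that holds their heat shock element is printed here, with the element in capitals, because its letters are the same in both genes. Both sequences come from RefSeq on build GRCm38.p6, run 5′ to 3′ on the minus strand, and start 130 bases before the annotated start of the transcript, at chr17:34972227-34972286 for Hspa1a and chr17:34959309-34959368 for Hspa1b.
Hspa1a: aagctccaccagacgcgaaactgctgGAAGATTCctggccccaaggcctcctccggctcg
Hspa1b: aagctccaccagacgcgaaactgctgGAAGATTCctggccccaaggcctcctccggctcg
All 60 bases agree, as do 296 of 300 (98.7%) over the whole window of 250 bases before to 50 after the start.

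Hspa1a, read by 1452388_at, gave 9.28 and 8.88 on cDNA, against 12.16 and 13.44 on aRNA. Both cDNA arrays lay below both aRNA arrays. The difference was −3.72 ± 0.45 (SE), 13.2-fold higher on aRNA (adjusted p = 0.000355), and −4.36 without aRNA array 0. In bulk tissue, fewer cells of a type and less RNA per cell cannot be told apart in any of these values. Between the preparations the amplification and the type of target differ as well, and their part was not tested.

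Of the 3 probe sets of Hspa1b, 2 gave the same picture. At 1427127_x_at the levels were 8.94 and 9.87 on cDNA and 12.88 and 12.86 on aRNA, a difference of −3.47 ± 0.38 (adjusted p = 0.000215), and −3.46 without aRNA array 0. At 1427126_at they were 7.77 and 8.40 against 11.97 and 12.07, and cDNA array 0 lay under its background level, so aRNA was at least 15.0-fold higher (adjusted p = 0.000164). The fitted difference was −3.94, and −3.98 without aRNA array 0. The leading Hspa1b probe set, 1452318_a_at, did not share that gap. It read 13.30 and 13.85 on cDNA and 13.73 and 14.24 on aRNA, the groups overlapped, and the difference was −0.41 with a 95% interval from −1.04 to 0.22 (adjusted p = 0.265), and −0.66 without aRNA array 0 (adjusted p = 0.127). Between the same 4 arrays the inducible HSP70 transcripts thus differed by 11.1-fold or more at 3 probe sets and not detectably at 1.

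Hspa8 encodes the constitutive HSP70, which among other tasks strips clathrin coats from vesicles. Its leading probe set, 1455789_x_at, read 16.72 and 16.88 on cDNA and 16.73 and 17.02 on aRNA. The 4 arrays overlapped there, with a difference of −0.08 and a 95% interval from −0.46 to 0.31 (adjusted p = 0.737), which excludes a 2-fold change. Without aRNA array 0 it was −0.23 (adjusted p = 0.413). At 1420622_a_at, 16.73 and 16.85 on cDNA stood above 16.01 and 15.81 on aRNA, a difference of 0.87 ± 0.17 (adjusted p = 0.00324), and 0.97 without aRNA array 0. At 1420623_x_at the difference was 0.42 (adjusted p = 0.0587), and 0.38 without that array. The fourth probe set, 1431182_at, went the other way, with 9.50 and 9.24 on cDNA below 10.84 and 10.86 on aRNA (difference −1.48 ± 0.38, adjusted p = 0.013), but that call was lost without aRNA array 0 (adjusted p = 0.0755) or aRNA array 1 (0.077).

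Hsph1, an HSP110 that exchanges the nucleotide of HSP70 and so lets it release its substrate, was called in both directions. Its leading probe set, 1425993_a_at, read 16.72 and 17.03 on cDNA, above 16.09 and 16.27 on aRNA. The difference was 0.69 ± 0.18 (adjusted p = 0.0125), it was 0.61 without aRNA array 0 (0.0452), and it did not pass without cDNA array 1 (0.54, adjusted p = 0.101). At 1423566_a_at the order was reversed, with 12.45 and 12.32 on cDNA below 13.73 and 12.97 on aRNA, a difference of −0.96 ± 0.30 (adjusted p = 0.0309). That call was lost without aRNA array 0 (−0.58, adjusted p = 0.221), without cDNA array 0 (0.0677) and without cDNA array 1 (0.102).

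Dnajb1 is an HSP40 that delivers substrates to HSP70 and stimulates its ATPase. Its levels at 1416755_at were 14.40 and 14.66 on cDNA and 15.55 and 15.52 on aRNA. Both cDNA arrays were lower, by 2.0-fold, with a difference of −1.0 ± 0.19 (adjusted p = 0.00338) and −0.99 without aRNA array 0. The second probe set, 1416756_at, read 11.56 and 11.26 against 11.98 and 12.25, a difference of −0.70 that did not pass (adjusted p = 0.0877), nor without aRNA array 0 (−0.84, adjusted p = 0.139).

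Hsp90aa1 encodes the inducible cytosolic HSP90, which holds kinases and steroid receptors in an activatable state. The leading probe set, 1438902_a_at, read 16.05 and 16.56 on cDNA and 16.41 and 16.51 on aRNA. These overlapped (difference −0.16, 95% interval from −0.61 to 0.29, adjusted p = 0.553, and −0.21 without aRNA array 0). At 1437497_a_at, 15.43 and 15.70 on cDNA lay below 16.69 and 16.58 on aRNA, and at 1426645_at, 15.41 and 15.38 lay below 16.37 and 16.37. The differences were −1.07 ± 0.18 (adjusted p = 0.00158) and −0.98 ± 0.17 (adjusted p = 0.00182). The probe set 1441827_x_at was the opposite, with 10.62 and 10.78 on cDNA above 8.84 and 8.65 on aRNA (difference 1.95 ± 0.41, adjusted p = 0.0049). Without aRNA array 0 these 3 calls held (−1.01, −0.98 and 2.05), with adjusted p between 0.00456 and 0.016.

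Hspb1 encodes a small heat shock protein, a chaperone that holds unfolded proteins without ATP and protects the cytoskeleton. It was the only member with no call between the preparations. At 1422943_a_at it read 15.32 and 14.65 on cDNA and 15.46 and 16.03 on aRNA. The cDNA arrays lay below the aRNA arrays, but cDNA array 0 and aRNA array 0 were close, and the difference was −0.76 ± 0.27 (adjusted p = 0.0506), just above the threshold. It passed under 8 of 13 alternatives, among them without aRNA array 0 (−1.05, adjusted p = 0.0137). At 1425964_x_at the preparations overlapped, with 15.29 and 14.22 on cDNA and 14.90 and 15.72 on aRNA (difference −0.55, adjusted p = 0.257, and −0.96, adjusted p = 0.0557, without aRNA array 0).

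Hspa5, also called BiP, is the HSP70 of the endoplasmic reticulum, and the unfolded protein response raises it through the endoplasmic reticulum stress element. The 80 bases of its promoter that carry this element, in capitals, are shown because no other member window was found to hold this element. They are from RefSeq, build GRCm38.p6, plus strand, chr2:34772005-34772084, and start 85 bases before the annotated start.
Hspa5: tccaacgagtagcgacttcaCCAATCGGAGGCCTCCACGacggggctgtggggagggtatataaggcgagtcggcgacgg
No heat shock element pair was found in its window, nor in those of Dnajb1.

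The leading Hspa5 probe set, 1416064_a_at, read 15.01 and 14.79 on cDNA and 15.94 and 15.75 on aRNA. Both cDNA arrays were lower, with a difference of −0.95 ± 0.19 (1.93-fold higher on aRNA, adjusted p = 0.00391). At 1447824_x_at the gap was the largest of any member probe set, with 8.58 and 8.59 on cDNA, above background, and 12.94 and 13.02 on aRNA. That is a difference of −4.40 ± 0.33, 21.1-fold higher on aRNA (adjusted p = 4.35e-05). Both calls held without aRNA array 0 (−0.86, adjusted p = 0.0169, and −4.44, adjusted p = 0.000106). The third probe set, 1427464_s_at, had the opposite sign, with 14.50 and 14.57 on cDNA and 14.17 and 13.34 on aRNA. Its difference of 0.78 ± 0.28 did not pass with all arrays (adjusted p = 0.0531) and passed without aRNA array 0 (1.19, adjusted p = 0.00506). Within this gene, differences spanned 5.18.

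Hspd1 and Hspe1 encode the 2 parts of the mitochondrial folding chamber, the HSP60 barrel and its HSP10 lid, and are transcribed away from each other from a shared promoter. Of the 300-base window at the Hspe1 start, 285 bases are also in an annotated Hspd1 window, at chr1:55087883-55088182. In the other Hspd1 window, at chr1:55088194-55088493, no heat shock element pair was found. The stretch printed here carries 3 overlapping heat shock element pairs, in capitals. It lies between the Hspe1 start and the Hspd1 start of the window that shares the 285 bases. It is from RefSeq, build GRCm38.p6, chr1:55088053-55088082, on the plus strand, which is the strand of Hspe1, and starts 95 bases before its annotated start.
Hspe1: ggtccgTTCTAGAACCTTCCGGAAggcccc

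These partners did not differ alike between the preparations. Hspd1, at its single probe set 1426351_at, read 14.06 and 13.99 on cDNA and 16.10 and 16.30 on aRNA. Both cDNA arrays were far lower, with a difference of −2.17 ± 0.19, 4.5-fold higher on aRNA (adjusted p = 7.46e-05), and −2.27 without aRNA array 0. Hspe1 at its leading probe set, 1450668_s_at, read 15.30 and 15.62 on cDNA and 14.87 and 15.10 on aRNA. There the cDNA arrays were the higher ones, but the difference of 0.47 ± 0.20 did not pass (adjusted p = 0.0878), nor without aRNA array 0 (0.36, adjusted p = 0.291). At 1422579_at the levels were 12.93 and 13.14 against 11.43 and 12.07, a difference of 1.29 ± 0.30 (adjusted p = 0.00871), and 0.97 without aRNA array 0 (adjusted p = 0.0445).

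The difference between the preparations at Hspd1 minus that at Hspe1 was −2.65 with the leading Hspe1 probe set (SD of 0.19 between arrays of a preparation) and −3.46 with the other (SD 0.26). Both are larger than the spread between arrays, but an exact two-sided permutation test of 2 arrays against 2 cannot go below p = 0.333, which both reached.

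**Figure D2:**
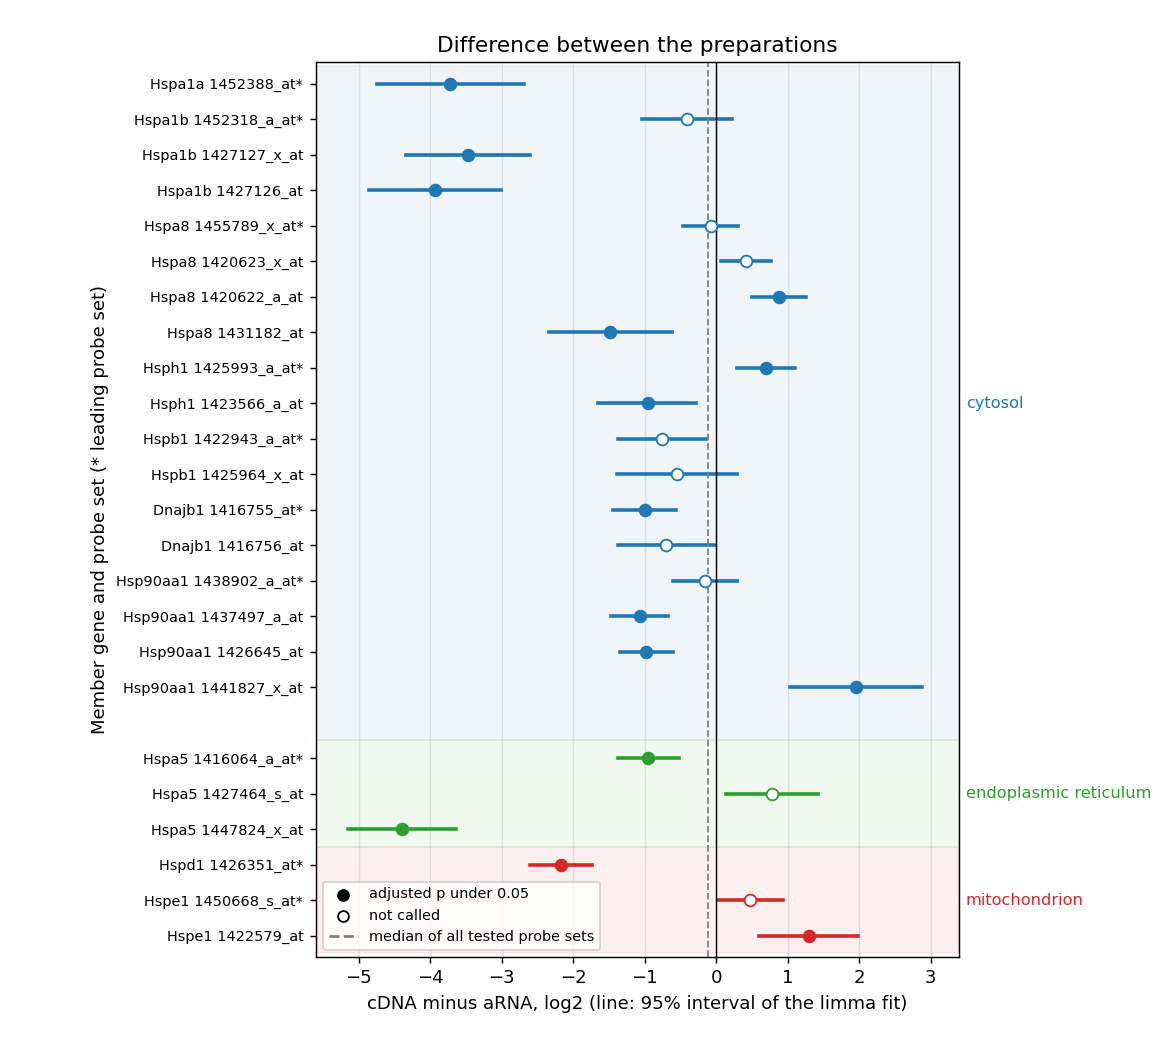
Difference between the preparations (cDNA minus aRNA, log2) at the 24 tested member probe sets, with the 95% interval of the limma fit as a line, filled points where the adjusted p was under 0.05, and a dashed line at the median of all tested probe sets (−0.11). Hspa5 runs from −4.40 to 0.78, and Hspd1 (−2.17) and Hspe1 (0.47 and 1.29) lie on opposite sides of 0.

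Probe sets of a single gene disagreed in several members. Of the 8 members with several tested probe sets, 3 (Hspa8, Hsph1 and Hsp90aa1) had calls in both directions, and 4, these and Hspa5, had differences of both signs. The median span between the lowest and highest difference within a gene was 2.0 over these 8 members and 1.53 over the 5034 genes with several tested probe sets. Among the 5 members with several called probe sets the 3 had calls in both directions, as did 766 of 1688 genes with several called probe sets (45.4%). Hspa1a, Hspa1b, Dnajb1, Hspa5 and Hspd1 had lower calls alone, Hspe1 a higher call alone, and Hspb1 none.

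By compartment, the leading probe sets gave a median difference of −0.41 for the 7 cytosolic members, −0.95 for Hspa5 alone and −0.85 for the 2 mitochondrial members, which is a mean of opposite values. Over all 3 tested mitochondrial probe sets the median was 0.47, of the opposite sign, since 2 of them read Hspe1. Over all tested genes the median was −0.06. Of the cytosolic members 2 were called lower and 1 higher, of the mitochondrial members 1 lower. With a single member or a pair per compartment outside the cytosol, no difference between compartments was tested.

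A wider set of chaperone genes gave more members per compartment. Of 54 other tested cytosolic genes 19 were lower and 14 higher on cDNA (61.1% called, median −0.40), of 28 endoplasmic reticulum genes 9 were lower and 1 higher (35.7%, median −0.54), and of 16 mitochondrial genes 4 were lower and 4 higher (50.0%, median −0.17), against 44.8% of all genes. Without aRNA array 0, an alternative chosen after the data were seen, the lower and higher counts were 16 and 13 of the cytosolic, 5 and 1 of the endoplasmic reticulum and 4 and 3 of the mitochondrial genes. Of the endoplasmic reticulum genes, 18 were not called with all arrays. The 9 lower ones included Pdia6, a disulfide isomerase (−3.03), Hsp90b1, the HSP90 of this compartment (−1.85), and the secreted stress factor Manf (−1.23). The single gene called higher was the oxidase Ero1a (1.15). Of 12 genes of the unfolded protein response, 3 were lower, the sensors Eif2ak3 (−1.92) and Atf6 (−1.22) and the transcription factor Xbp1 (−2.62). Another 2 were higher, Ppp1r15b (0.84) and Asns (0.59), and the median was −0.35. The sensor Ern1 was not called (−0.56).

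Among the mitochondrial genes the HSP40 Dnaja3 (2.11) and the protease Yme1l1 (1.67) were higher on cDNA and the protease subunit Afg3l2 lower (−1.59). In the cytosol, the BAG domain and HSP70 regulator genes had 5 lower and 2 higher of 8 (median −1.23), with Bag2 at least 13.4-fold lower on cDNA, where array 0 lay under background, Bag5 at −1.84 and Bag6 at 2.27. The TRiC chaperonin, which folds actin and tubulin, had 3 lower and none higher of 8 (median −0.40), Cct5 (−1.57), Cct7 (−0.94) and Cct6a (−0.69). Its partner prefoldin was split, with 2 lower and 3 higher of 6 (median 0.37), including Pfdn2 (−4.21), Pfdn1 (2.49) and Pfdn5 (1.76).

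Cytosolic HSP40 genes other than Dnajb1 had 4 lower and 2 higher of 11 (median −0.49), led by Dnajb4 (−2.11), Dnajb5 (1.67) and Dnajc7 (−1.38). The HSP90 co-chaperone genes had 4 lower and 2 higher of 11 (median −0.54), led by Aarsd1 (−2.55), Unc45a (1.6) and Tomm34 (1.56). No HSP90 gene was among these 11. Other HSP70 and HSP110 genes had 1 lower, Hspa4l (−1.72), and 4 higher of 6 (median 0.90), among them Hspa2 (0.96) and Hspa12b, at least 5.2-fold higher on cDNA and under background on aRNA array 1. Of 4 small heat shock protein genes besides Hspb1, 1 was called, Cryab, the alpha-B crystallin of glia, higher on cDNA (0.83, median of the 4 −0.27). Of the heat shock factor list 2 genes were tested, the factor Hsf4 (0.55) and Hsbp1, whose protein binds such a factor (−0.49). Neither was called (median 0.03). Hsf1, which encodes heat shock factor 1, had no probe set annotated to it alone.

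**Figure D3:**
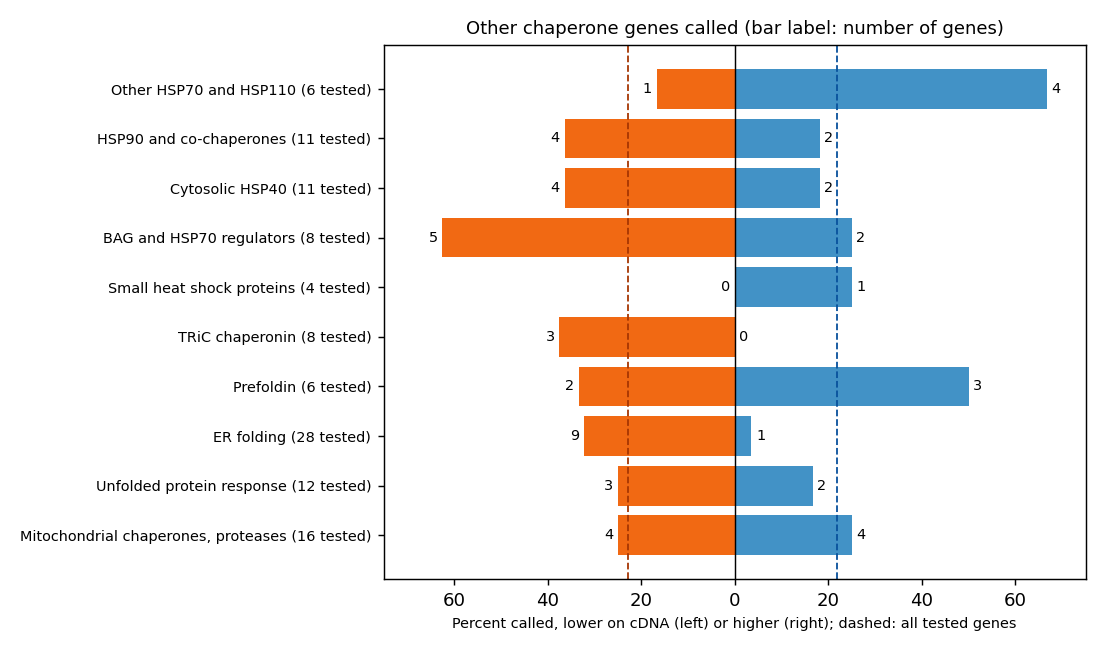
Percent of the tested genes of each chaperone group called lower on cDNA (orange, to the left) or higher on cDNA (blue, to the right), with the number of genes at each bar and dashed lines at the percent of all tested genes (22.9% lower, 21.9% higher). The endoplasmic reticulum group has 9 lower and 1 higher of 28, and the mitochondrial group 4 and 4 of 16.

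Some marker genes of other cell types differed between the same arrays. Of 10 tested meningeal and fibroblast genes 7 were higher and 1 lower on cDNA, of 4 choroid plexus genes 3 were higher and of 5 endothelial genes 3 were higher, with none lower in the last 2. The log2 of the summed intensity of the choroid plexus markers was 16.67 and 17.44 on cDNA, far above 11.09 and 10.78 on aRNA. On cDNA that sum was nearly all Ttr, at 16.63 and 17.32. Clic6 was not called (0.25), and Folr1, not tested, had the opposite sign (−1.16). The sum of the meningeal markers was 16.25 and 15.36 against 15.50 and 14.76. On aRNA it was mostly Dcn, at 15.28 and 14.26, the gene called lower on cDNA. Neurons had 2 higher and 1 lower of 10, astrocytes 3 and 2 of 10, oligodendrocytes 2 and 3 of 9, and microglia and macrophages 1 and 1 of 12. The part of these cells in the chaperone differences was not tested.

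The second question was whether chaperone transcripts differed between arrays numbered 1 and 0, a contrast the labels do not explain. In the aRNA pair, number 1 minus 0 was 6.88 for Xist and −6.33 for Eif2s3y. There the number and the sex-linked difference cannot be told apart. In the cDNA pair the values were 0.57 and −3.17, and Eif2s3y lay under background on both arrays numbered 1. None of the 24 member probe sets was called in limma's fit with preparation and number, against 0.0622% of all probe sets tested (14 of 22519), and the lowest adjusted p was 0.833. At an unadjusted p under 0.05 there was 1, the leading Hspa1b probe set, 1452318_a_at. It was higher on number 1 by 0.54 within cDNA and 0.51 within aRNA (adjusted p = 0.833). Over all tested probe sets, 5.86% had such a p. None of the 98 other tested chaperone genes was called either, against 0.0837% of all genes. An unadjusted p under 0.05 was found for 5 of the 98, against 6.02% of all tested genes.

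The intervals bound how large a difference could have been missed. For the leading probe set of Hspa8 the difference, number 1 minus 0, was 0.23 with a 95% interval from −0.04 to 0.49. For Hspd1 it was 0.07 (−0.32 to 0.46), for Hsp90aa1 0.30 (−0.02 to 0.62), for Hspa5 −0.21 (−0.57 to 0.16) and for Dnajb1 0.12 (−0.29 to 0.52). All 5 intervals exclude a 2-fold difference in either direction. Over the 24 probe sets the interval reached between 0.27 and 0.99 to each side. At the inducible HSP70 genes the upper bounds passed 2-fold. Hspa1a had 0.45 (−0.51 to 1.40), and the Hspa1b probe sets had 0.53 (0.03 to 1.03) at the leading one, 0.46 (−0.37 to 1.29) at 1427127_x_at and 0.36 (−0.57 to 1.30) at 1427126_at. For these, and for Hspe1 1422579_at (0.42, −0.23 to 1.08), a difference past 2-fold in favour of number 1 lies within the interval. A 2-fold difference in favour of number 0 lies within it at Hspa8 1431182_at (−0.12, −1.04 to 0.79), Hsph1 1423566_a_at (−0.45, −1.07 to 0.17) and Hsp90aa1 1441827_x_at (−0.02, −1.01 to 0.97).

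Within the preparations, the member differences ran from −1.07 to 0.93 for cDNA and from −0.83 to 1.29 for aRNA. Their median size was 0.26 and 0.20, against 0.37 and 0.33 over all probe sets tested. Of the 24, 12 had the same sign in both preparations. Hspb1 did not: number 1 was lower on cDNA (−0.67 and −1.07 at its 2 probe sets) and higher on aRNA (0.57 and 0.82). Its mean difference at the leading probe set was −0.05, with a 95% interval from −0.58 to 0.48. By compartment, the median of the leading probe sets was 0.26 and 0.30 in the cDNA and aRNA pairs for the cytosol, −0.22 and −0.19 for Hspa5 and 0.13 and 0.22 for mitochondria. The mean of the pairs for the cytosol, 0.25, was 0.05 with all probe sets of a gene averaged and 0.06 after quantile normalisation.

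Other genes did differ between the numbers on these arrays, with the same limit from the sex-linked transcripts of the aRNA pair. Of 12 tested microglial and macrophage markers 3 were called higher on number 1, Tyrobp (2.74, limma adjusted p = 0.022), C1qa (2.70, 0.0175) and Ctss (1.75, 0.00902). The median over the 12 was 1.33 in the cDNA pair and 2.39 in the aRNA pair. Signs in these pairs were opposite at the uncalled Tmem119 (−0.75 and 0.85), Cx3cr1 (−0.68 and 1.74) and P2ry12 (0.96 and −0.21). The whole list of 14, as log2 of its summed intensity, stood at 16.13 and 17.14 on cDNA, and at 14.85 and 17.25 on aRNA. Ctss, C1qb and Csf1r together made most of that sum on each array. Of 8 tested injury and immediate early genes 3 were called higher, Sprr1a (3.67, limma adjusted p = 0.00902), Atf3 (2.96, 0.0439) and the neuropeptide gene Gal (1.97, 0.0476). The tested immediate early genes Jun (0.13), Junb (0.58), Fos (0.30) and Egr1 (1.08) were not called, nor was Gap43 (0.50). The summed level of that list was 15.92 and 16.40 with cDNA target, and 15.32 and 16.20 with aRNA. On cDNA the largest part of that sum was Jun, at 15.19 and 15.35. Chaperone genes had no call in that contrast, and whether these groups of genes differ from each other was not tested. No call was made between the numbers among neuronal, astrocytic, oligodendrocyte, endothelial, meningeal or choroid plexus markers. A missing call does not show equal levels. The astrocytic Gfap was higher on number 1 by 1.14 in the cDNA pair and 5.27 in the aRNA pair (limma adjusted p = 0.265). Aqp4 was higher by 0.89 and 1.16 (0.448), and the median over the 10 astrocytic genes was 0.31.

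**Figure D4:**
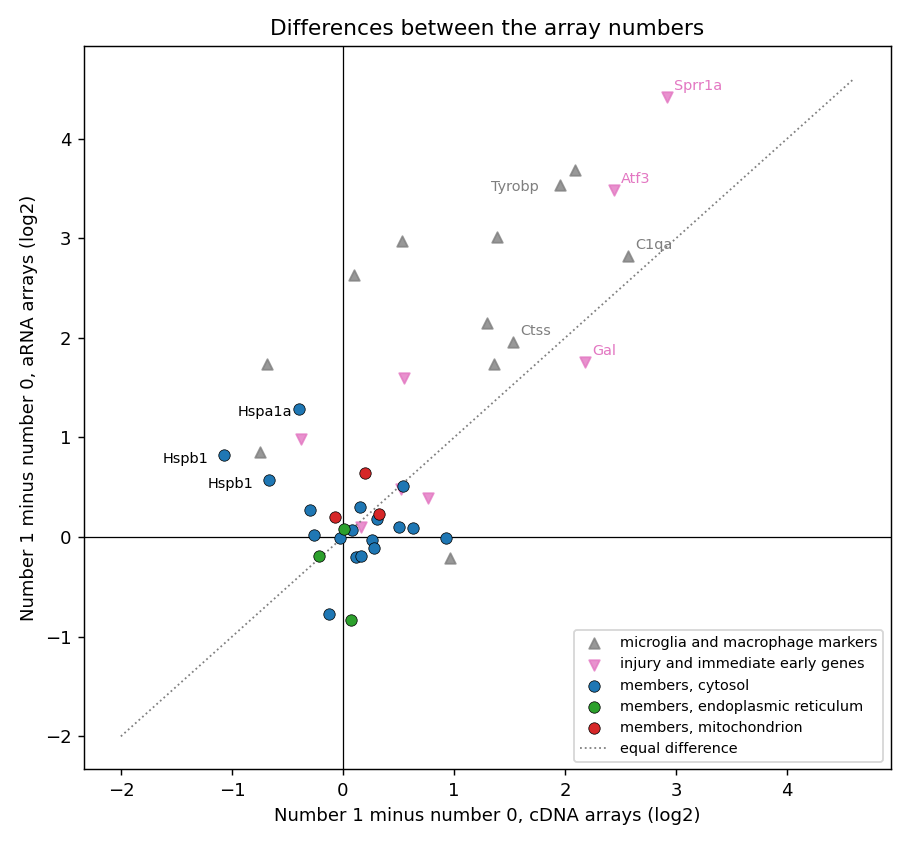
Difference between arrays numbered 1 and 0 (log2) in the cDNA pair (horizontal axis) and the aRNA pair (vertical axis) for the 24 tested member probe sets (circles, by compartment) and for tested microglial (triangles up) and injury genes (triangles down); the dotted line marks equal differences. The members stay between −1.07 and 1.29 on both axes, while Sprr1a, Atf3, Tyrobp, C1qa, Ctss and Gal lie at the upper right and the Hspb1 and Hspa1a points lie left of 0 and above 0.

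The promoter windows of the members differ in the elements they hold. RefSeq windows from 250 bases before to 50 after a start were at hand for 8 of the 10 members. A heat shock element pair, GAANNTTC or TTCNNGAA (each the same on both strands), was in a window of 6 of these 8, Hspa1a, Hspa1b, Hspb1, Hsph1, Hspd1 and Hspe1, and in 15.1% of all 32851 windows. The first is a count by member and the second a share by window, and some members have more than 1 window. The 6 are not separate cases, since Hspd1 and Hspe1 share their elements and the Hspa1a and Hspa1b windows are near-identical. A further unit joined to such a pair was in windows of Hspd1, Hspe1 and Hsph1 and in 0.603% of all windows. In the Hsph1 windows it lies after the annotated start and outside the stretch printed below. The endoplasmic reticulum stress element (CCAAT and CCACG with 9 bases between, either strand) was in that of Hspa5 and in 0.119% of all windows. Further stretches with the pairs in capitals, both on build GRCm38.p6, show how they vary. That of Hspb1 is at chr5:135887786-135887845 (plus strand, from 133 bases before the start). That of Hsph1 is at chr5:149636351-149636380 (minus strand). It begins 44 bases before the annotated start of the Hsph1 window at chr5:149636287-149636586.
Hspb1: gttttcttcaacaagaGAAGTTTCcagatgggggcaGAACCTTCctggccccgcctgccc
Hsph1: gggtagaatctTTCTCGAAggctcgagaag
A match is a description of letters. The 6 members with a pair included some with only lower calls on cDNA (Hspa1a, Hspa1b and Hspd1), 1 with only a higher call (Hspe1), 1 with both (Hsph1) and 1 with none (Hspb1).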

How the data were processed

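The authors deposited 1 intensity value per probe set and array on a linear scale; the sources used here do not name the software that summarised the probes. Each column's 2% trimmed mean was 2500.02, so the values were used as they stand. Levels are log2(intensity + 16). Gene names came from the platform annotation, with symbols updated through gene identifiers in a RefSeq table (34754 of 34958 probe sets with 1 symbol were found). The 64 control probe sets were not tested. Tests used limma 3.58.1 in R 4.3.3 (lmFit, eBayes with intensity trend), cDNA against aRNA without covariate, and number 1 against 0 with preparation in the model, which leaves 1 residual degree of freedom and no test of interaction. The code was checked on simulated data. Named genes are all members and, per list, up to 3 called genes with the largest difference, plus any called between the numbers. Ero1a, Ern1, Ppp1r15b, Asns and the uncalled marker, injury and immediate early genes were named after their values were seen. Lower bounds set levels under background to the background level. The members, gene lists and tests were chosen with earlier results of these data known. Figures used matplotlib 3.10.9.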

Additional observations from a re-analysis of the deposited data

Results flagged for a closer look

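In 3 members the difference between number 1 and number 0 had opposite signs in the 2 preparations and was larger in each than the median absolute difference between its arrays (0.37 for cDNA, 0.33 for aRNA). With 1 array per preparation and number, the contrast between preparations was not tested. Hspb1 gave −0.67 on cDNA and 0.57 on aRNA at 1422943_a_at, and −1.07 and 0.82 at 1425964_x_at. Hspa1a gave −0.40 and 1.29 at 1452388_at. The Hsp90aa1 probe set 1433251_at gave 1.89 and −1.95, but lay under background on 3 of 4 arrays.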

How the results depend on the processing

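Of 300 refits of single member probe sets, 273 kept their side of the threshold, 17 gained a call, 10 lost it and none reversed a called direction; the sign of none of the 24 differences turned with median centring or quantile normalisation. The higher calls on cDNA, 4 in the report, were 2 without an intensity trend, where Hspa8 1420622_a_at (adjusted p = 0.0565) and Hsph1 1425993_a_at (0.112) did not pass. With the array number as a replicate block they were 7, with 12 lower. The numbers are not known to pair the arrays. Over all probe sets tested, the number 1 minus 0 differences of the preparations correlate at 0.041. Only 14 of 22519 were called between the numbers, so this value cannot decide whether the arrays are paired. Leaving out 1 array gave 3 to 5 higher and 10 to 12 lower calls, cytosolic medians from −0.66 to −0.14, −1.06 to −0.84 for Hspa5 and −0.96 to −0.74 for mitochondria. With arrays centred on their medians, Hspa5 moved to −1.10 and the mitochondrial median to −1.0, against −0.25 for all probe sets. With the mean over all probe sets of a gene they were −1.52 and −0.64, and with _x_at and _s_at probe sets left out the mitochondrial median was −0.44. Between the numbers, leaving out an array leaves only the pair of the other preparation and no residual degree of freedom. The medians are then those within each pair, given above (0.26 to 0.30 for the cytosol, −0.22 to −0.19 for Hspa5, 0.13 to 0.22 for mitochondria). They are therefore no separate check. No member was called between the numbers under the other alternatives run.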
